A study of Homo sapiens with 18 samples.

Results

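BEAS-2B cells exposed to filtered wood smoke were compared with BEAS-2B cells exposed to clean air, 3 RNA-seq libraries against 3, which are 6 of the 18 libraries of the study. The libraries were chosen by their labels alone: cell type BEAS-2B, and treatment with filtered smoke or the clean air control. BEAS-2B is a human bronchial epithelial line immortalised with viral T antigen, labelled here as wild type. The study also exposed A549 lung carcinoma cells, and each line also received the complete aerosol, with 3 libraries in each of the other 4 groups. By its title, the series is about carbonyl compounds of the gas phase, and a filter is the step that separates gases from particles.

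All 3 BEAS-2B groups shared the same handling. For each insert of 24 mm, 500000 cells were plated in complete KGM medium 24 h ahead. Exposure lasted 4 h, at a flow of 100 mL/min in air of 85% relative humidity, with HEPES-buffered RPMI medium beneath the inserts. Clean air took the place of smoke in the control group, so both groups carry any effect of the flow and of the exposure itself. RNA was extracted with TRIzol and made into libraries with a TruSeq mRNA kit. The labels do not state whether same-group libraries were grown or exposed apart, and the p-values therefore describe library-to-library spread that may be technical.

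Wood smoke vapour holds aldehydes such as formaldehyde, acetaldehyde and acrolein, which react with cysteines, lysines and DNA bases. Cells meet such electrophiles through several known routes. NRF2, released from its cysteine-rich sensor KEAP1, drives glutathione and quinone-reducing enzymes, HSF1 drives chaperones when proteins misfold, ATF4 drives amino acid and stress genes, and MAP kinases switch on immediate early genes within minutes. Airway epithelium answers injury with cytokines and growth factor ligands, and dehydrogenases, reductases and glutathione transferases remove the aldehydes.

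The label of the line was checked against its markers in the 9 BEAS-2B libraries. CDKN2A, a cell cycle inhibitor lost in A549 cells, ranged from 164 to 839 CPM (gene counts relative to the library total, here before scaling between libraries) in BEAS-2B and held 0 counts in all 9 A549 libraries. KRT5, a basal cell keratin, ranged from 69.6 to 140 CPM in BEAS-2B and reached no more than 0.241 CPM in A549. AKR1B10, an aldo-keto reductase typical of A549, stood at 0.152 to 0.405 CPM in BEAS-2B and at 1161 to 2693 CPM in A549. The epithelial adhesion gene EPCAM was present in BEAS-2B at 8.23 to 17.5 CPM. Some other epithelial genes reached higher levels in A549. The basal factor TP63 ranged from 1.71 to 14.9 CPM in BEAS-2B and from 4.84 to 22.6 CPM in A549. The adhesion gene CDH1 ranged from 4.27 to 39.9 CPM in BEAS-2B and from 30.3 to 93.3 CPM in A549. KRT8 and KRT18 reached 3531 and 3321 CPM in BEAS-2B and 7936 and 5872 CPM in A549. A list of 26 markers of other lung and stromal cells summed to 43.9 to 61.4 CPM in clean air and to 19.6 to 22.7 CPM in filtered smoke, and 7 of the 26 (SCGB1A1, SCGB3A1, SFTPA1, SFTPA2, SFTPB, SFTPD and CD3E) had at most 3 counts over the 9 libraries. The stromal marker PDGFRB, also on that list, ranged from 3.09 to 45.2 CPM in BEAS-2B and reached no more than 0.567 CPM in A549. In such bulk libraries, fewer cells of a kind and less RNA per cell cannot be told apart.

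Depth differed with the exposure. The clean air libraries held 28.5 to 31.1 M (mega) gene counts (mean 30.2 ± 1.45 M, SD, n = 3) and the filtered smoke libraries 39.1 to 54.4 M (46.0 ± 7.72 M), without overlap. Reads mapping to several places made up 8.69% ± 0.840 of mapped reads in clean air and 14.1% ± 4.54 in filtered smoke. Reads outside genes, as a share of reads mapping to a single place, had the opposite order, at 5.10% ± 1.47 and 1.75% ± 0.998. Each of these measures gave p = 0.1 in a two-sided exact permutation test, the smallest value that 3 against 3 allows. Their part in the gene results was not tested. Clean air 1 stood apart from its group: on the first principal component of the 9 BEAS-2B libraries (72.0% of the variance) it lay at 44.5, with the other clean air libraries at 110.5 and 119.3 and the filtered smoke libraries at -80.5, -48.9 and -25.4. Results are therefore given with it, and without it where that matters.

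Of 16356 genes tested, 7947 (48.6%) passed an adjusted p of 0.05 in edgeR's quasi-likelihood test with Benjamini-Hochberg adjustment, the test behind every adjusted p below unless another is named. Genes that passed are said to have risen or fallen: 3867 (23.6%) rose and 4080 (24.9%) fell, and 5877 (35.9%) passed with at least a 2-fold change. In 10048 genes (61.4%) the 3 values of one group lay wholly above the 3 of the other. Each group of genes below is to be read against those shares and against the median log2 change of all tested genes, which was -0.07. Without clean air 1 the test called 9276 genes, 7493 of them among the 7947, and without clean air 3 it called 3652. Scaled by library size alone instead of by TMM factors, which ranged from 0.752 to 1.52 in these libraries, the median of all genes moved to -0.74 and the calls to 1663 higher and 7415 lower. Under that scaling the median of 9 of the 26 gene lists changed sign. A change of scaling moves all genes by nearly the same amount. List medians relative to the median of all genes could therefore hardly move, and their kept signs test nothing. Values per library below are TMM-scaled CPM, given for libraries 1, 2 and 3 in turn, and changes are log2 fold changes ± SE, filtered smoke minus clean air.

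**Figure D1:**
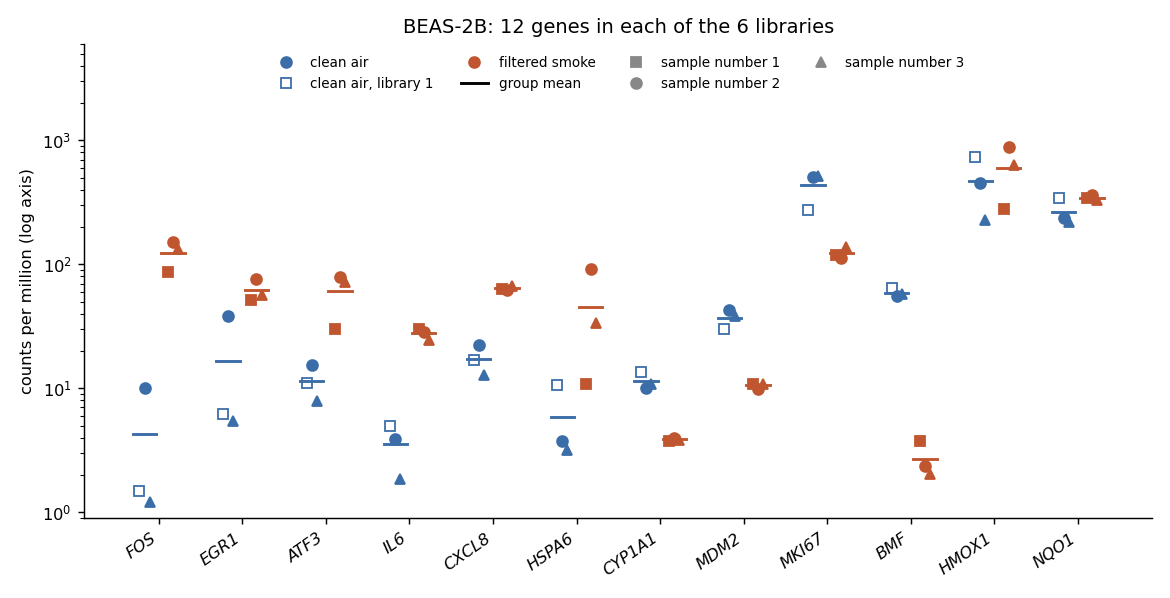
TMM-scaled CPM (log axis) of 12 genes in each BEAS-2B library, with 1 point per library, clean air in blue and filtered smoke in orange. The bars are group means and the open square is clean air 1. FOS, IL6 and BMF show groups far apart, while the points for HMOX1 intermingle.

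Of 40 immediate early genes, which cells transcribe within minutes of a stimulus with no need of new protein, 28 rose and 1 fell, with a median of 1.70. FOS, a subunit of the AP-1 transcription factor (ENSG00000170345, GRCh38 chr14:75278774-75282230), stood at 1.49, 10.1 and 1.199 CPM in clean air and at 87.4, 150.2 and 133 CPM in filtered smoke. Every filtered smoke library was above every clean air library, and clean air 2 was the highest of the controls. FOS rose by 4.85 ± 0.81 (adjusted p = 0.00400), and by 4.45 without clean air 1. Its partner JUN measured 102, 83.5 and 63.5 CPM against 136, 236 and 276 CPM, a rise of 1.38 ± 0.33 (adjusted p = 0.0106). The groups did not overlap for JUN, and with library size alone its change was 0.77 (adjusted p = 0.107).

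EGR1, a zinc finger factor induced through serum response factor (ENSG00000120738, chr5:138465490-138469315), held 6.23, 38.2 and 5.44 CPM in clean air and 51.8, 76.2 and 56.8 CPM in filtered smoke. Clean air 2 was again far above the other controls, for EGR1 as for FOS, though still below all filtered smoke libraries. The change in EGR1 was 1.89 ± 0.68 (adjusted p = 0.0432). That call did not hold without clean air 1 (1.505, adjusted p = 0.0894) or with offsets for GC content and length (1.33, adjusted p = 0.139) or with library size alone (1.16, adjusted p = 0.203), and it was lost on leaving out any 1 of the 6 libraries except clean air 2 (adjusted p from 0.0676 to 0.113). The 250 bases before its start (RefSeq, GRCh38.p14, chr5:138465229-138465478, plus strand) are shown because its motif matches are those of the best known immediate early route, and the capitals mark 2 CArG boxes, the sequence that serum response factor binds.
EGR1 promoter: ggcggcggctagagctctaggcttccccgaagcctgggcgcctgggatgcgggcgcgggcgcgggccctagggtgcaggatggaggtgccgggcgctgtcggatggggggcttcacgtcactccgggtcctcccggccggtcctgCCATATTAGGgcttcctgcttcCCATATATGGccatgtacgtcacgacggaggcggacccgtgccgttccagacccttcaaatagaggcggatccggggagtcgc
A CArG box was found in 1.16% of 35116 such windows when both strands were searched. None was found in the windows of the other genes searched, which include FOS, JUN, ATF3 and IL6, and bases further upstream were not searched. A match is a description of the letters, not a bound site.

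Other members of the group also rose. IER2, a short-lived nuclear protein, went from 30.5, 26.4 and 16.1 CPM to 119.8, 158 and 164 CPM, a rise of 2.60 ± 0.29 (adjusted p = 0.00191). JUNB rose by 2.47 ± 0.32 and EGR2 by 2.82 ± 0.48. ATF3, a repressor of the same family that also answers ATF4 (ENSG00000162772, chr1:212565334-212620777), measured 11.1, 15.4 and 7.96 CPM against 29.99, 79.8 and 72.2 CPM, with filtered smoke 1 the lowest of its group. It rose by 2.40 ± 0.44 (adjusted p = 0.00495). MYC, by contrast, was at 0.49 ± 0.19 (adjusted p = 0.0546) and did not pass. It passed at 0.57 (adjusted p = 0.0409) without clean air 1, at 0.50 (adjusted p = 0.00352) in a fit with the sample number as a block, which is described with the processing, and also in the fit of all 18 libraries, with DESeq2, with limma-voom, with upper-quartile scaling and with counts that ignore strand.

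DUSP2, a phosphatase that turns off MAP kinases, measured 0.225, 0.196 and 0.161 CPM in clean air and 2.55, 2.67 and 1.84 CPM in filtered smoke, a rise of 3.58 ± 0.38 (adjusted p = 0.00187). DUSP1 and DUSP6, with the same role, rose by 2.06 ± 0.21 and 2.78 ± 0.34. RGS2, which shuts off G protein signals (ENSG00000116741, chr1:192809039-192812283), went from 3.66, 2.702 and 3.04 CPM to 17.1, 44.4 and 44.2 CPM and rose by 3.49 ± 0.45 (adjusted p = 0.00241). Filtered smoke 1 was the lowest of its group for RGS2, as for ATF3. The transcription regulators ID2, HES4 and SNAI1 were close behind. ID2, an inhibitor of helix-loop-helix factors (ENSG00000115738, chr2:8678845-8684453), stood at 6.23, 4.64 and 3.62 CPM against 33.9, 47.6 and 43.0 CPM, a rise of 3.11 ± 0.26 (adjusted p = 0.00161). HES4 rose by 3.33 ± 0.41, and SNAI1, a repressor of epithelial adhesion genes, by 3.24 ± 0.43.

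Of 20 ligands, receptors and feedback genes of EGFR, the epidermal growth factor receptor, 8 rose and 5 fell, with a median of -0.03 that turned to 0.05 without clean air 1. With library size alone 4 rose and 9 fell. The ligand HBEGF measured 36.1, 20.8 and 13.2 CPM in clean air and 85.9, 100.2 and 85.5 CPM in filtered smoke, a rise of 1.95 ± 0.34 (adjusted p = 0.00442). The ligand AREG and the inhibitor SPRY4 also rose, by 1.55 ± 0.24 and 2.47 ± 0.35. EGFR itself was at -0.89 ± 0.45 (adjusted p = 0.125), the inhibitor LRIG1 fell by 1.42, and the receptor ERBB3 fell by 1.35. The members that rose spanned a median of 11.8 kb of genome and those that fell 104.9 kb, a contrast taken up below for all genes.

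Of 28 measured NF-kB targets and cytokines, 18 rose and 1 fell, with a median of 1.43. IL6 (ENSG00000136244, chr7:22725884-22732002) stood at 4.96, 3.92 and 1.85 CPM in clean air and at 30.3, 28.7 and 24.8 CPM in filtered smoke. All filtered smoke libraries were well above all controls, and IL6 rose by 2.97 ± 0.43 (adjusted p = 0.00283). The neutrophil attractant CXCL8 (ENSG00000169429, chr4:73740506-73743716) went from 17.04, 22.2 and 12.7 CPM to 63.5, 62.2 and 66.6 CPM, a rise of 1.89 ± 0.30 (adjusted p = 0.00346). IL1B, an alarm cytokine of the same pathway, measured 7.30, 6.86 and 3.62 CPM against 39.4, 42.3 and 28.6 CPM and rose by 2.63 ± 0.32. Its relative IL1A rose by 2.55 ± 0.25.

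Several further cytokines of epithelial cells moved the same way. IL24 measured 3.16, 2.29 and 1.61 CPM in clean air and 22.4, 17.96 and 15.8 CPM in filtered smoke and rose by 2.99 ± 0.30 (adjusted p = 0.00179). TSLP, an epithelial cytokine that acts on dendritic cells, was low in every library at 0.338, 0.545 and 0.554 CPM and 3.44, 2.97 and 3.01 CPM, a rise of 2.69 ± 0.29. RELB, a subunit of NF-kB, and the monocyte attractant CCL2 rose by 2.75 ± 0.52 and 2.37 ± 0.50. The usual feedback genes of the pathway did not pass: NFKBIA, its inhibitor, was at -0.08 ± 0.50 (adjusted p = 0.906) and TNFAIP3, a deubiquitinase, at 0.06 ± 0.24 (adjusted p = 0.856). TNFAIP2, also a target, fell by 1.597 ± 0.25.

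Of 26 heat shock genes, 9 rose and 1 fell, with a median of 0.05, so the group sat near all genes and its change lay in a few members. With library size alone 3 rose and 4 fell, and the median was -0.58. HSPA6, a strictly inducible HSP70 (ENSG00000173110, chr1:161524540-161526910), measured 10.7, 3.77 and 3.16 CPM in clean air and 10.8, 91.4 and 33.9 CPM in filtered smoke. The groups were separated only narrowly, by clean air 1 and filtered smoke 1, while filtered smoke 2 was the highest by far. HSPA6 rose by 2.96 ± 0.97 (adjusted p = 0.0326), and by 3.72 without clean air 1. The call did not hold with library size alone (adjusted p = 0.0587), nor without clean air 2, clean air 3 or filtered smoke 2 (adjusted p from 0.105 to 0.128). The 250 bases before its start (RefSeq, GRCh38.p14, chr1:161524290-161524539, plus strand) are shown because its 2 matches to the heat shock element GAANNTTC, in capitals, are the binding letters of HSF1.
HSPA6 promoter: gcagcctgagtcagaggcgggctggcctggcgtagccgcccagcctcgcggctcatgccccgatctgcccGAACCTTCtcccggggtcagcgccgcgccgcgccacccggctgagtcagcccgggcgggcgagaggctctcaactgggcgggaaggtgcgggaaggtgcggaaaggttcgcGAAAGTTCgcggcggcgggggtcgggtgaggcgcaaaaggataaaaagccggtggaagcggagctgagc
The element was found on either strand in 5.78% of the 35116 windows, among them that of JUN, 1 of 2 windows of BMF and 1 of 3 windows of DNAJB1.

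DNAJB1, the HSP40 partner of HSP70, stood at 263, 177 and 180.1 CPM in clean air and at 279, 586 and 477 CPM in filtered smoke. It rose by 1.11 ± 0.34 (adjusted p = 0.0243), with filtered smoke 1 again close to clean air 1. The call was lost with library size alone (0.50, adjusted p = 0.244), and without clean air 2, clean air 3, filtered smoke 2 or filtered smoke 3 (adjusted p from 0.0548 to 0.0898). The small heat shock proteins CRYAB and HSPB1 rose by 2.05 ± 0.48 and 1.52 ± 0.55. HSPH1, a nucleotide exchange factor for HSP70, was at -0.61 ± 0.45 (adjusted p = 0.271; -0.80 with the block, adjusted p = 0.0164), and the constitutive HSPA8 at 0.07 ± 0.28 (adjusted p = 0.854). HSPA4L fell by 1.36 ± 0.36, a call lost without clean air 3 (adjusted p = 0.0608) and with offsets for GC content and length, which brought the change to -0.35 (adjusted p = 0.164).

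Of 30 genes of the ATF4 integrated stress response, which lowers general translation and raises amino acid supply, 10 rose and 3 fell, with a median of 0.32. Under scaling by library size alone 4 rose and 11 fell and the median was -0.35. DDIT3, the factor CHOP, measured 38.4, 14.7 and 11.99 CPM in clean air and 51.2, 82.0 and 76.9 CPM in filtered smoke, a rise of 1.69 ± 0.42 (adjusted p = 0.0127) whose call was lost without clean air 2 (adjusted p = 0.0525). PPP1R15A, which restores translation, went from 127, 100.4 and 74.1 CPM to 194, 357 and 264 CPM and rose by 1.43 ± 0.32, but did not pass with library size alone (0.81, adjusted p = 0.0519). The pseudokinase TRIB3 and the secreted GDF15 rose by 1.75 ± 0.31 and 2.27 ± 0.43. Not all known targets passed: CHAC1, which degrades glutathione, was at 1.47 ± 0.65 (adjusted p = 0.0832) and DDIT4, an inhibitor of mTOR signals, at -0.38 ± 0.31 (adjusted p = 0.318). CHAC1 passed without clean air 1, at 2.12 (adjusted p = 0.0324). DDIT4 passed as lower with offsets for GC content and length (-1.11, adjusted p = 0.000921) and with library size alone (-1.03, adjusted p = 0.00676). Of the amino acid transporters, SLC38A2 fell by 1.55 and SLC7A5 fell by 0.92.

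Of 28 genes of protein folding in the endoplasmic reticulum 0 rose and 8 fell, with a median of -0.19, so the share that fell and the median were near those of all genes. HSPA5, its main chaperone BiP, stood at 2678, 1889 and 1840.0 CPM in clean air and at 637, 985 and 1015 CPM in filtered smoke. The groups were well apart and HSPA5 fell by 1.28 ± 0.27 (adjusted p = 0.00742). The co-chaperone DNAJC3 and SEL1L, of the degradation machinery, fell by 2.56 ± 0.38 and 2.27 ± 0.48. Without clean air 1, 8 members were higher and 9 lower, with the block 6 and 13, and with library size alone 0 and 18.

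Of 34 NRF2 targets, 12 rose and 2 fell, with a median of 0.65. With library size alone 4 rose and 7 fell and the median was 0.00, and without clean air 1 the counts were 17 and 2. HMOX1, which degrades haem (ENSG00000100292, chr22:35380361-35394214), was at 731, 454 and 227 CPM in clean air and at 281, 879 and 636 CPM in filtered smoke. The libraries of the 2 groups intermingled, and HMOX1 did not pass at 0.35 ± 0.58 (adjusted p = 0.633). NQO1, a quinone reductase, stood at 346, 235 and 219.8 CPM against 341, 364 and 332 CPM, a difference of 0.37 ± 0.23 (adjusted p = 0.194). Without clean air 1, the highest of its group, NQO1 passed at 0.61 (adjusted p = 0.0235).

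OSGIN1, a stress-induced regulator of growth, and TXN, the thiol reductase thioredoxin, were among the NRF2 targets that rose. OSGIN1 measured 7.16, 3.77 and 3.51 CPM in clean air and 11.8, 22.7 and 17.8 CPM in filtered smoke, a rise of 1.86 ± 0.46 (adjusted p = 0.0121) whose call was lost without clean air 2 or 3 (adjusted p from 0.0513 to 0.0515). TXN went from 765, 411 and 406 CPM to 1759, 1525 and 1522 CPM and rose by 1.603 ± 0.29. The ferritin light chain FTL and the biliverdin reductase BLVRB rose by 1.29 ± 0.39 and 1.65 ± 0.43, the latter call lost without clean air 2 or 3 (adjusted p from 0.0546 to 0.0586). The genes of glutathione synthesis and of thioredoxin reduction had negative values. GCLC, the catalytic subunit of glutamate-cysteine ligase, fell by 0.9998 ± 0.37 (adjusted p = 0.0482), while its partner GCLM was at -0.85 (adjusted p = 0.114) and the cystine importer SLC7A11 at -1.55 (adjusted p = 0.102). TXNRD1, thioredoxin reductase, measured 537, 632 and 593 CPM against 164, 395 and 423 CPM, which do not overlap, at -0.84 ± 0.38 (adjusted p = 0.0913). In the fit with the sample number as a block, in which 17 members of the list rose and 6 fell, GCLM (-0.89, adjusted p = 0.000106), SLC7A11 (-1.84, adjusted p = 0.000242) and TXNRD1 (-0.97, adjusted p = 0.00300) passed as lower, and SRXN1, NQO1 and CHAC1 as higher (1.82, 0.40 and 1.46, adjusted p = 0.0398, 0.0488 and 0.00787). GCLM, SLC7A11 and TXNRD1 also passed as lower in the fit of all 18 libraries (adjusted p = 0.0360, 0.0354 and 0.0292).

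Of 35 enzymes of aldehyde and carbonyl metabolism, 18 rose and 4 fell, with a median of 0.63 (-0.03 with library size alone, 8 higher and 11 lower). ESD, the hydrolase of S-formylglutathione in formaldehyde disposal, stood at 90.4, 76.2 and 76.6 CPM in clean air and at 181, 186 and 187 CPM in filtered smoke, a rise of 1.19 ± 0.16 (adjusted p = 0.00247). ADH5, the dehydrogenase that acts before it, measured 147, 112 and 115 CPM against 171, 195 and 200.2 CPM and rose by 0.60 ± 0.18 (adjusted p = 0.0241). The glutathione transferases GSTM3 and GSTO1 rose by 1.601 ± 0.23 and 1.77 ± 0.34, and the glyoxalase HAGH, which clears methylglyoxal adducts, by 2.01 ± 0.43. ALDH3A2, a fatty aldehyde dehydrogenase, fell by 1.05 ± 0.19. ALDH3A1, a related enzyme also induced through the aryl hydrocarbon receptor, was at 12.96, 6.14 and 5.91 CPM against 4.26, 4.05 and 1.86 CPM and fell by 1.30 ± 0.44 (adjusted p = 0.0369). ALDH3A1 did not pass on leaving out any 1 of the 6 libraries (adjusted p from 0.0535 to 0.118).

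The aryl hydrocarbon receptor senses polycyclic aromatic compounds, and its list of 8 measured genes (5 targets, the receptor AHR, its partner ARNT and NFE2L2) had 0 higher and 5 lower, with a median of -1.02. CYP1A1, its best known target (ENSG00000140465, chr15:74719542-74725610), stood at 13.5, 10.1 and 10.8 CPM in clean air and at 3.78, 3.99 and 3.84 CPM in filtered smoke. The 2 groups were each tight and far apart, and CYP1A1 fell by 1.57 ± 0.20 (adjusted p = 0.00231), a call not held in the fit of all 18 libraries (adjusted p = 0.0596). CYP1B1 measured 136, 309.6 and 295 CPM against 50.5, 75.4 and 95.5 CPM and fell by 1.74 ± 0.37. TIPARP, a repressor of the receptor, fell by 0.75 ± 0.21, a call lost without clean air 2, clean air 3 or filtered smoke 1 (adjusted p from 0.0523 to 0.0744). AHR itself (ENSG00000106546, chr7:16916359-17346152) went from 62.3, 91.8 and 92.6 CPM to 14.4, 16.8 and 18.5 CPM, a fall of 2.31 ± 0.32 (adjusted p = 0.00254). The list had 0 higher and 5 lower also without clean air 1, and 0 higher and 8 lower with library size alone.

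Metallothioneins bind zinc and other metals, and of their list of 10 measured genes 2 rose and 1 fell, with a median of -0.47. Without clean air 1 the median was -0.09, with 3 higher and 2 lower, and with offsets for GC content and length it was -0.70, with 0 higher and 3 lower. MT2A (ENSG00000125148, chr16:56608199-56609497), was at 1168, 444 and 419.9 CPM in clean air and at 1791, 1474 and 1387 CPM in filtered smoke. Clean air 1 was more than 2-fold above the other controls, and still below the filtered smoke libraries. MT2A rose by 1.195 ± 0.41 (adjusted p = 0.0379), by 1.85 without clean air 1, and did not pass with library size alone (0.59, adjusted p = 0.0928), with offsets for GC content and length (0.56, adjusted p = 0.0716) or without any 1 of the 5 libraries other than clean air 1 (adjusted p from 0.0600 to 0.126). Its 250 bases before the RefSeq start (GRCh38.p14, chr16:56608334-56608583, plus strand) are shown for contrast with HSPA6: they hold 7 matches to the metal element TGCNCNC, in capitals, and no match to GAANNTTC.
MT2A promoter: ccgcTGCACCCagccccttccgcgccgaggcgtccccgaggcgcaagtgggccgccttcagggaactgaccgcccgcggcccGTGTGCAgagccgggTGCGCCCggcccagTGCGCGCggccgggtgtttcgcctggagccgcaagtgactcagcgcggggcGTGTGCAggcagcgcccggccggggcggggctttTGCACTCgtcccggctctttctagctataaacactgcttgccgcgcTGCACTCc
The metal element is short and was found in 49.1% of the windows. MTF1, the factor that binds it, fell by 1.43 ± 0.28, and MT1X did not pass (0.50, adjusted p = 0.307).

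**Figure D2:**
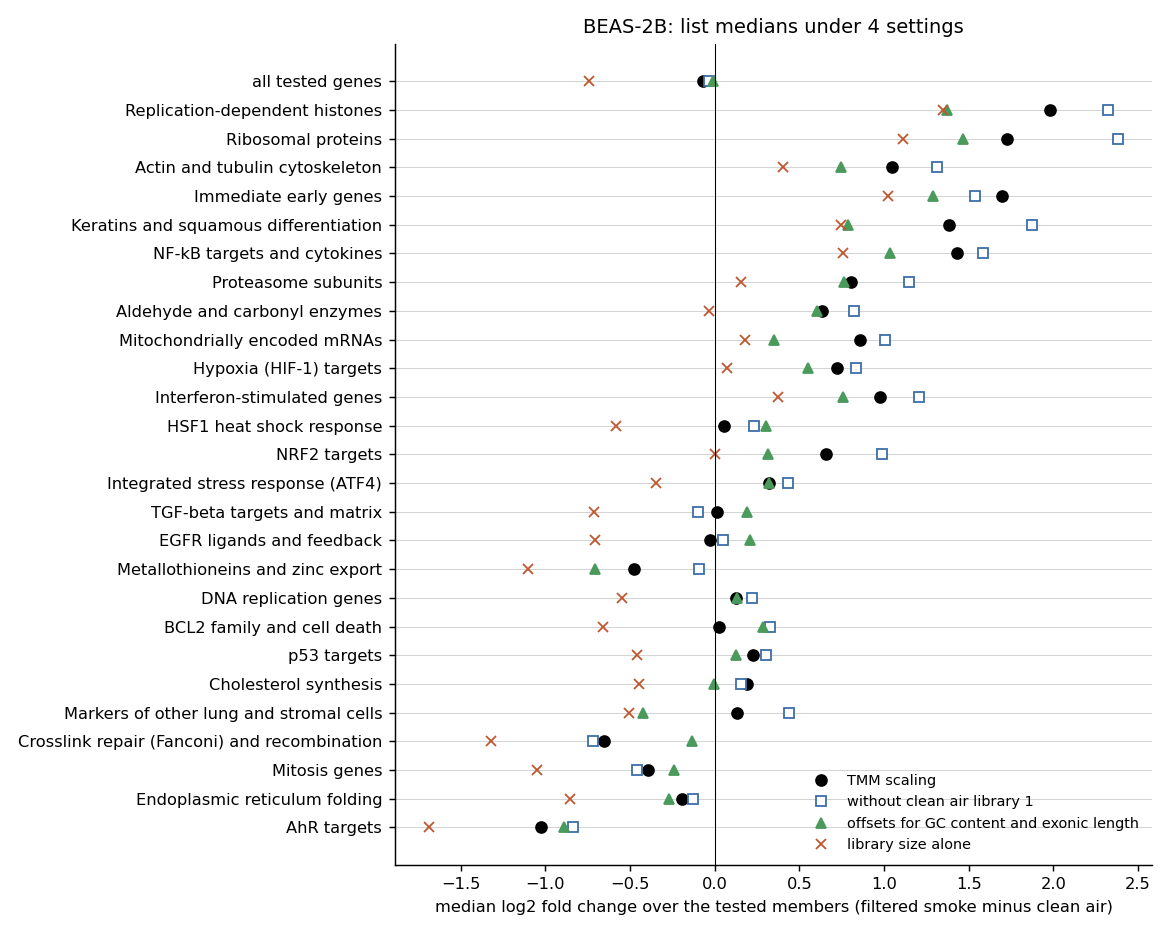
Median log2 fold change (filtered smoke minus clean air) of each gene list, with TMM scaling (black circles), without clean air 1 (open squares), with offsets for GC content and exonic length (triangles) and with library size alone (crosses). The top row is the median of all tested genes. With TMM scaling, histones (1.98), ribosomal proteins (1.73) and immediate early genes (1.70) lie highest and AhR targets (-1.02) lowest.

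Of 33 p53 targets, 10 rose and 9 fell, with a median of 0.22. Under scaling by library size alone 6 rose and 15 fell and the median was -0.46. GADD45A, which binds PCNA and stress kinases, stood at 34.5, 28.3 and 21.3 CPM in clean air and at 132, 169.7 and 179 CPM in filtered smoke, a rise of 2.51 ± 0.23 (adjusted p = 0.00161). Its relative GADD45B rose by 2.32 ± 0.36. CDKN1A, the cell cycle inhibitor p21, measured 138, 91.6 and 80.4 CPM against 192, 201 and 192 CPM and rose by 0.92 ± 0.23 (adjusted p = 0.0135). That call was lost with library size alone (adjusted p = 0.173) and with offsets for GC content and length (adjusted p = 0.0681), and without clean air 2 or 3 (adjusted p from 0.0565 to 0.0581). MDM2, the ligase that degrades p53 (ENSG00000135679, chr12:68808176-68850686), went the other way, from 30.03, 42.9 and 38.3 CPM to 10.9, 9.90 and 10.9 CPM, a fall of 1.81 ± 0.36 (adjusted p = 0.00616). TIGAR, a regulator of glycolysis, and the bypass polymerase POLH also fell by 2.19 ± 0.37 and 1.29 ± 0.22. The p53 targets that rose spanned a median of 4.397 kb and those that fell 46.8 kb.

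Among 25 genes of the BCL2 family and of cell death, 8 rose and 7 fell, with a median of 0.03 that was 0.33 without clean air 1. With library size alone 4 rose and 9 fell. BMF, a BH3-only protein that promotes death after loss of attachment (ENSG00000104081, chr15:40087890-40108892), was far lower in filtered smoke. It stood at 64.2, 55.4 and 57.2 CPM in clean air and at 3.74, 2.34 and 2.05 CPM in filtered smoke, 2 tight groups far apart, and fell by 4.45 ± 0.39 (adjusted p = 0.00161). BCL2L11, the related BIM, went from 31.1, 43.2 and 42.2 CPM to 7.80, 9.59 and 10.1 CPM and fell by 2.08 ± 0.24. XIAP, which inhibits caspases, fell by 2.75 ± 0.47, and APAF1, the platform that activates them, by 2.08 ± 0.48. BCL2A1, a survival protein and NF-kB target, rose by 3.16 ± 0.40 from a low level (0.310, 0.174 and 0.161 CPM against 2.42, 2.07 and 1.27 CPM). BAX and BAD, which promote death, rose by 1.48 and 2.01.

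Mitosis genes split, with 4 of 35 higher, 14 lower and a median of -0.40. MKI67, a coat of mitotic chromosomes used as a proliferation marker, measured 273, 507 and 521 CPM in clean air and 119, 113 and 139 CPM in filtered smoke, a fall of 1.81 ± 0.36 (adjusted p = 0.00630). Clean air 1 lay between the other controls and the filtered smoke libraries. The kinetochore protein CENPF and the motor KIF11 fell by 2.001 ± 0.46 and 1.76 ± 0.39. The short genes UBE2C, PTTG1 and CDC20, of the machinery that ends mitosis, rose by 1.39 ± 0.36, 1.40 ± 0.32 and 1.16 ± 0.37. The 4 that rose spanned a median of 5.65 kb and the 14 that fell 54.2 kb. Of 42 DNA replication genes 12 rose and 9 fell, with a median of 0.12 (with library size alone 2 and 20, median -0.55). The polymerase subunit POLE2 rose by 1.21 ± 0.19 and the helicase subunit GINS1 fell by 1.502 ± 0.22.

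In the repair of crosslinks, the damage that bifunctional aldehydes can leave, 6 of 32 genes rose and 13 fell, with a median of -0.65. BLM, a helicase of recombination, measured 26.5, 28.7 and 29.8 CPM in clean air and 13.04, 12.7 and 16.5 CPM in filtered smoke, a fall of 1.01 ± 0.19 (adjusted p = 0.00496). PALB2 and BRCA2, partners in homologous recombination, fell by 0.98 ± 0.21 and 2.21 ± 0.65. UBE2T, the conjugating enzyme of the Fanconi pathway, rose by 1.40 ± 0.26 and the nuclease subunit ERCC1 by 1.85 ± 0.46. With offsets for GC content and length 7 rose and 8 fell and the median was -0.13, with library size alone 3 rose and 21 fell, and the genes that fell spanned a median of 84.8 kb against 16.3 kb for those that rose.

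The most uniform groups were not stress genes. Of 45 ribosomal protein genes 44 rose, with a median of 1.73, and 44 were higher also without clean air 1. RPS23 stood at 1634, 823 and 815 CPM in clean air and at 5300.5, 4023 and 3652 CPM in filtered smoke, a rise of 1.99 ± 0.35 (adjusted p = 0.00444). Clean air 1 was the highest control, and still well below the filtered smoke libraries. RPL22 was the exception at -0.18 ± 0.22 (adjusted p = 0.512). Ribosomal protein genes have many near-identical pseudogene copies, so their levels are uncertain, and reads that map to several places are not in these counts. Processed pseudogenes, counted apart, had 174 higher and 27 lower of 491.

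All 22 measured replication-dependent histone genes rose, with a median of 1.98, and 21 were higher without clean air 1. Their mRNAs end in a stem-loop and carry no poly(A) tail, so a poly(A) library holds little of them. H1-4, a linker histone, measured 0.732, 0.196 and 0.507 CPM in clean air and 4.94, 3.45 and 7.47 CPM in filtered smoke, a rise of 3.48 ± 0.62 (adjusted p = 0.00464). H2BC21 was at 1.49, 1.15 and 1.41 CPM against 3.64, 6.02 and 5.61 CPM and rose by 1.92 ± 0.27. Histone genes are near-identical within a class, so counts of single members are uncertain.

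Of 31 actin and tubulin cytoskeleton genes 22 rose and 0 fell (median 1.05). ACTG1, gamma actin, rose by 1.79 ± 0.37 and ACTN1, which crosslinks actin, by 1.21 ± 0.25, from 208, 336 and 291 CPM to 799.6, 593 and 537 CPM. With library size alone 8 of these genes rose and 2 fell, and ACTN1 did not pass (0.47, adjusted p = 0.137). Of 29 keratins and squamous genes 18 rose and 0 fell (median 1.38), and with library size alone 8 rose and 5 fell. KRT6B, a keratin of wounded epithelium, went from 7.72, 4.86 and 6.14 CPM to 17.5, 15.8 and 15.4 CPM and rose by 1.38 ± 0.24, while the basal marker KRT5 was at 0.25 ± 0.20 (adjusted p = 0.329). TP63, the transcription factor of basal cells, fell by 1.70 ± 0.31. Of 33 proteasome genes 20 rose and 1 fell (median 0.80; with library size alone 8 and 5), with the assembly factor POMP at 1.44 ± 0.21. NFE2L1, the factor that drives proteasome genes, fell by 0.62 ± 0.19.

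Hypoxia targets had 17 of 29 higher and 7 lower (median 0.72), which turned to 7 higher and 12 lower (median 0.07) with library size alone. The glycolytic kinase PFKP rose by 1.84 ± 0.25, from 99.6, 98.9 and 83.9 CPM to 423, 316 and 271 CPM, whereas PFKFB4 and the angiogenic factor VEGFA fell by 1.64 ± 0.32 and 0.59 ± 0.16. Interferon-stimulated genes had 12 of 29 higher and 3 lower (median 0.98), and 9 and 7 with library size alone. Those that rose included the antigen presentation genes B2M (1.45 ± 0.22) and TAP1 (1.63 ± 0.25) and the factor IRF7 (1.93 ± 0.36), whereas STAT2, which carries the interferon signal, fell by 1.39 ± 0.25 and IFIT1 did not pass at -0.62. Cholesterol synthesis was even, at 7 higher and 7 lower of 27 (median 0.19; with library size alone 2 and 10, median -0.45). DHCR7, its last enzyme, rose by 1.42 ± 0.24, and STARD4, which carries cholesterol between membranes, fell by 1.69 ± 0.40.

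Among 35 matrix genes and targets of TGF-beta, 12 rose and 6 fell, with a median of 0.02, and without clean air 1 the counts were 11 and 10 and the median -0.10, and with library size alone the counts were 7 and 14. CCN2, a matrix-associated growth regulator, stood at 39.9, 46.0 and 34.99 CPM in clean air and at 245, 154 and 175 CPM in filtered smoke. The groups were far apart, and CCN2 rose by 2.25 ± 0.27 (adjusted p = 0.00217). Of 10 measured markers of other lung and stromal cells 1 rose (ACTA2, 1.93 ± 0.40) and 2 fell, among them PDGFRB by 1.92 ± 0.26. MUC5AC, a gel-forming mucin (ENSG00000215182, chr11:1157953-1201138), was the other: it held 45, 68 and 80 counts in clean air and 0, 0 and 1 count in filtered smoke. Scaled for depth, clean air stood 185 times above filtered smoke (95% interval 32.8 to 7350, counting error only).

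**Figure D3:**
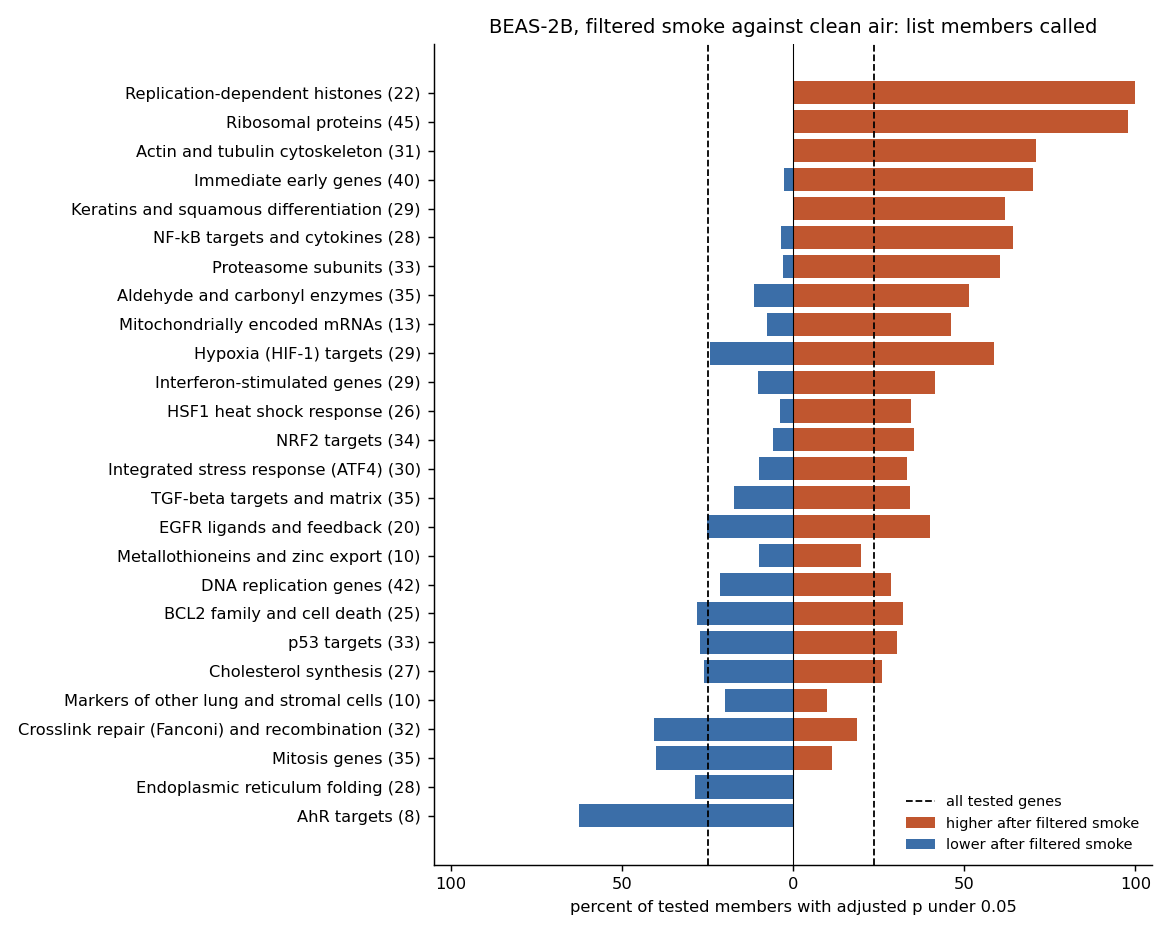
Percent of the tested members of each gene list (number in brackets) called higher (orange, to the right) or lower (blue, to the left) in filtered smoke at an adjusted p of 0.05. Dashed lines mark the shares of all tested genes, 23.6% and 24.9%. Ribosomal proteins (44 of 45 higher) and histones (22 of 22) are nearly all on one side, whereas p53 targets (10 higher, 9 lower) are divided.

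Among mRNAs encoded by mitochondrial DNA, 6 of 13 rose and 1 fell (median 0.86), against 2 and 2 with offsets for GC content and length and 1 and 2 with library size alone. MT-ND6, a subunit of complex I (ENSG00000198695, chrM:14149-14673) and the only one of the 13 encoded on the light strand, measured 215, 211 and 297 CPM in clean air and 7.05, 6.75 and 17.1 CPM in filtered smoke. The groups lay far apart, and MT-ND6 fell by 4.55 ± 0.83 (adjusted p = 0.00496). Counts on the opposite strand of the same gene were also lower, at 1111, 763 and 597 CPM, before scaling, in clean air and at 127, 300.1 and 213 CPM in filtered smoke, and with both strands counted together MT-ND6 fell by 2.04 and still passed. MT-ATP6 rose by 1.17 ± 0.31, a call lost without clean air 2, clean air 3 or filtered smoke 1 (adjusted p from 0.0536 to 0.0642), and MT-CO1 did not pass (-0.25, adjusted p = 0.554).

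The protein-coding genes with the largest falls among those of at least 5 CPM, after MT-ND6 and BMF, were TGFBR3, RAB27B, LRRC58, CFAP44, N4BP2 and ANKRD33B. TGFBR3, a co-receptor of TGF-beta, measured 13.2, 29.7 and 30.3 CPM in clean air and 2.38, 2.76 and 2.31 CPM in filtered smoke and fell by 3.29 ± 0.43. RAB27B, of vesicle secretion, went from 8.73, 20.3 and 23.0 CPM to 1.57, 1.84 and 2.14 CPM and fell by 3.23 ± 0.42. CFAP44, of the ciliary axoneme, was tight at 11.04, 11.4 and 11.4 CPM against 0.953, 1.32 and 1.81 CPM and fell by 3.04 ± 0.34. The largest rises after FOS and RGS2 included DUSP23 (3.33 ± 0.58), PPP1R35 (3.09 ± 0.52) and ANGPTL4 (3.04 ± 0.63), a lipase inhibitor.

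The genes that rose differed from those that fell in span, and also in exonic length and GC content. Among protein-coding genes, those that rose spanned a median of 15.3 kb, those not called 33.2 kb and those that fell 62.1 kb, and their median GC content was 53.2% against 43.6% in genes that fell. Protein-coding genes with a mean of at least 5 CPM over the 6 libraries were then split into 5 equal groups by span. From short to long, the median change was 0.96, 0.33, -0.01, -0.45 and -0.76. The shortest group held 1067 genes that rose and 124 that fell, and the longest 187 and 893. Without clean air 1 the shortest and longest groups lay at 1.26 and -0.91, and in the A549 libraries at 0.72 and -0.63. With offsets for GC content and exonic length the shortest and longest groups lay closer together, at 0.53 and -0.21. Exonic length and GC content gave gradients of similar size to that of span. Split by exonic length instead, the shortest and longest groups lay at 1.02 and -0.80, and the shortest held 1153 genes that rose and 65 that fell. Split by GC content, the lowest and highest groups lay at -0.77 and 0.71. Immediate early genes that rose spanned a median of 4.15 kb and NF-kB targets that rose 7.39 kb, so both groups sit at the short end. The part of span, GC content and length in the changes of these groups was not tested. With offsets for GC content and exonic length, immediate early genes had 25 higher and 2 lower (median 1.29) and NF-kB targets 14 and 1 (1.04), beside a median of all genes near 0.

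**Figure D4:**
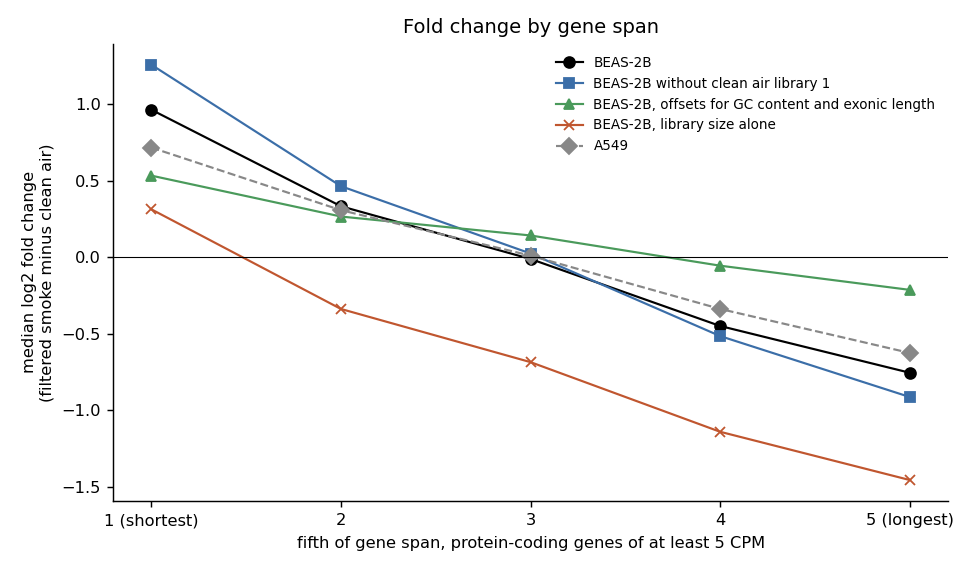
Median log2 fold change (filtered smoke minus clean air) of protein-coding genes of at least 5 CPM in 5 equal groups by genomic span, from short to long. Lines show BEAS-2B with and without clean air 1, with offsets for GC content and exonic length and with library size alone, and A549. The BEAS-2B line falls from 0.96 in the shortest group to -0.76 in the longest.

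Whether the filter changed the outcome was asked by setting filtered against complete smoke in the same line. No gene passed (0 of 16356, 0%) in edgeR's test, and 222 had an unadjusted p under 0.05. DESeq2's Wald test and limma-voom also called 0, with 310 and 180 genes at an unadjusted p under 0.05. Complete 3 stood apart from its group, at 13.7 on the first principal component, with complete 1 and 2 at -77.3 and -56.0. Its share of reads mapping to several places was 31.9%, against 13.1% and 10.3%. Without complete 3 the count stayed at 0, and filtered smoke against clean air called 9158 genes, since that library also feeds the shared spread. A count of 0 in a design of 3 against 3 does not show that the 2 kinds of smoke act alike.

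Whether the response to filtered smoke differed from that of A549 cells was tested as an interaction over all 18 libraries. It called 146 of 17703 genes (0.825%), 55 higher and 91 lower in BEAS-2B. With the sample number as a block it called 2742 (15.5%). Genes with large differences were MUC5AC and SHISA2 on the lower side and NOPCHAP1 and CFAP251 on the higher. NOPCHAP1 changed by 1.59 in BEAS-2B and by -0.56 in A549, a difference of 2.15 (adjusted p = 0.00270). HMOX1, at -2.09 in A549 (adjusted p = 0.00668), differed by 2.46 ± 0.66 from BEAS-2B, which did not pass (adjusted p = 0.0941). PLK3, a stress kinase and p53 target, differed by 1.97 (adjusted p = 0.0115), with a rise of 2.47 in BEAS-2B and 0.50 in A549. Across 15826 genes the changes in the lines had a Pearson correlation of 0.727 and a Spearman correlation of 0.781, given as a description since genes are not independent. Of 3920 genes called in both lines, 3886 had the same sign.

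**Figure D5:**
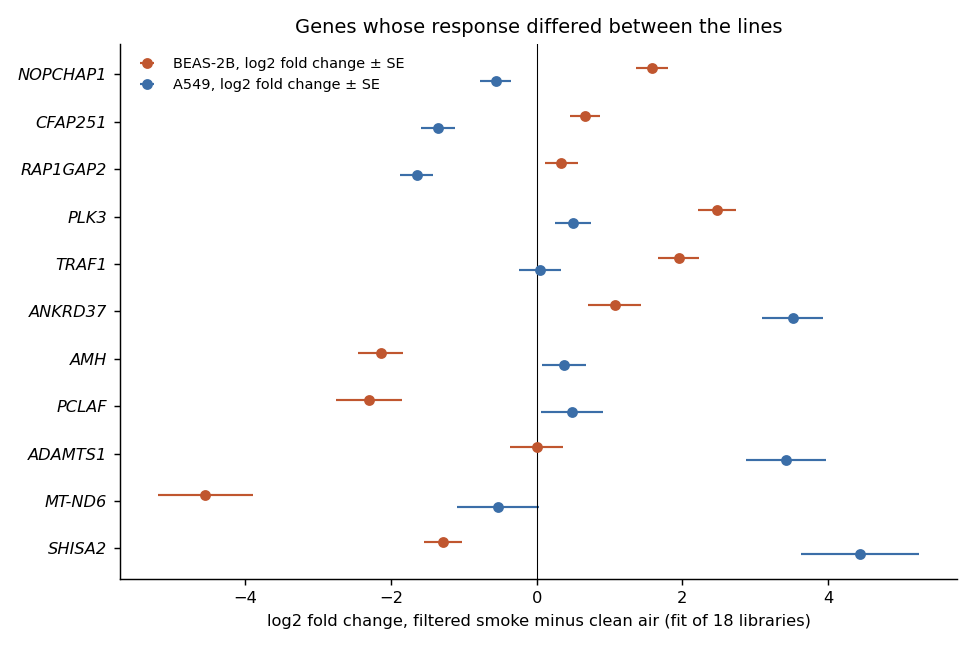
Log2 fold change (filtered smoke minus clean air) in BEAS-2B and in A549 for 11 genes with large differences between the lines, with bars of 1 SE, from the fit of 18 libraries. ADAMTS1 and ANKRD37 lie higher in A549 (3.42 and 3.51) and NOPCHAP1 and PLK3 higher in BEAS-2B.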

How the data were processed

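The authors deposited counts of reads per gene for 18 libraries, made with STAR 2.7.10b on GRCh38 per the submitters' processing notes; the annotation they counted on is not given in the sources used here. Each deposited table has 3 count columns and 4 summary lines. The counts of column 4 were used because they held 11.7 to 17.1 times those of the other strand in every library, the other 2 columns served only for that check, an alternative that ignores strand and the opposite strand of MT-ND6, and the summary lines stayed out of gene totals. Of 62649 gene IDs 62625 had a name and 58225 were in GENCODE v29, the source of positions. Promoters are from RefSeq (GRCh38.p14), matched by symbol for all 13 genes searched. No library pair held identical counts.

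Groups came from the labels. In R 4.3.3, genes passing filterByExpr were scaled by TMM and tested with edgeR 4.0.16 quasi-likelihood tests on the 9 BEAS-2B libraries, with all 18 for the interaction between lines and Benjamini-Hochberg adjustment over all tested genes; per-gene SEs came from the test statistic. The biological coefficient of variation was 0.299. Logs used a prior count of 2. Simulated data with 200 changed genes, run on 15819 genes, gave 31 of 100 recovered at a log2 change of 1 and 99 of 100 at 2, with 8 false among 138 calls. The simulation gave all genes 1 common spread, changed as many genes up as down and had no library that stood apart. It changed 200 genes, whereas 7947 were called in the real comparison. Its shares of recovered and false calls may therefore not hold for the real libraries. Alternatives covered DESeq2 1.42.0, limma 3.58.1 voom, other scalings and filters, thinned counts, offsets for GC content and exonic length (splines of mgcv 1.9.3), and leaving out libraries.

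Sample numbers 1 to 3 in the labels were checked as pairs, by correlating deviations of clean air and filtered smoke libraries from their group means. Same-numbered pairs correlated at 0.58, 0.16 and 0.57 in BEAS-2B and at 0.20, 0.19 and 0.31 in A549. Pairs of unlike number ranged from -0.59 to 0.43 in BEAS-2B and from -0.23 to 0.07 in A549. In BEAS-2B, clean air 2 correlated more with filtered smoke 3 (0.43) than with filtered smoke 2 (0.16), so the pairing is uncertain. On the first principal component, numbers 1, 2 and 3 lay in rising order within each BEAS-2B group. They lay at 44.5, 110.5 and 119.3 in clean air and at -80.5, -48.9 and -25.4 in filtered smoke. In complete smoke they lay at -77.3, -56.0 and 13.7. What the number stands for was not tested. The block lowered the biological coefficient of variation from 0.299 to 0.169, and that fit is given where it changes a call.

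The gene lists and the named genes were chosen with earlier results of these data known. Named genes are 35 fixed stress and growth genes, the 12 highest and 12 lowest changes (protein-coding genes called, mean 5 CPM or more over the 6 libraries, never at 0 counts, groups apart), up to 4 members of each list by smallest p, and the 6 largest differences each way between lines. Some genes that the rule gives are not reported here. Other list members named were picked after their values were seen.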

Additional observations from a re-analysis of the deposited data

Results flagged for a closer look

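For 14 of the genes chosen for naming (the test called 146 in all) the change with filtered smoke differed between the lines by edgeR's interaction test, with the change in BEAS-2B taken minus that in A549. On the lower side, MUC5AC, a mucin, differed by -6.36 (adjusted p = 0.00159), with counts of 0, 0 and 1 in the BEAS-2B filtered smoke libraries, so that its fitted value depends on the prior count. SHISA2 differed by -5.73 (adjusted p = 0.00302), with only 1, 0 and 0 counts in A549 clean air and 7, 9 and 9 in A549 filtered smoke. MT-ND6 differed by -4.02 (adjusted p = 0.0323), at -0.53 in A549, but by -1.38 (adjusted p = 0.221) when counts ignored strand. ADAMTS1, a secreted protease, differed by -3.42 (adjusted p = 0.0233), with 3.42 in A549 and no change called in BEAS-2B. PCLAF, which binds the replication clamp, differed by -2.78 (adjusted p = 0.0454), AMH by -2.51 (adjusted p = 0.0102), ANKRD37 by -2.44 (adjusted p = 0.0449) and RAB27B by -2.33 (adjusted p = 0.0341).

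On the higher side, the histone gene H3C10 differed by 1.53 (adjusted p = 0.0458) and TRAF1, an NF-kB target, by 1.91 (adjusted p = 0.0350), with a change of 1.95 in BEAS-2B and 0.04 in A549. PLK3 differed by 1.97 (adjusted p = 0.0115). For RAP1GAP2 (1.99, adjusted p = 0.00840), CFAP251 (2.02, adjusted p = 0.00578) and NOPCHAP1 (2.15, adjusted p = 0.00270) the change was positive in BEAS-2B and negative in A549. Leaving out 1 of the 12 libraries in turn lost the call for PCLAF in 12 of 12 cases, for ANKRD37 and H3C10 in 11, TRAF1 in 10, MT-ND6 and RAB27B in 9, ADAMTS1 in 6 and PLK3 in 2. After correction of the counts for GC content and exonic length, the differences of NOPCHAP1 (adjusted p = 0.0917) and CFAP251 (adjusted p = 0.0578) did not pass. That of H3C10 was lost with library size alone (adjusted p = 0.112), upper-quartile scaling, DESeq2 size factors, thinned counts and counts that ignore strand. With limma-voom, TRAF1, RAB27B, ADAMTS1, PCLAF and ANKRD37 did not pass (adjusted p from 0.0605 to 0.0828).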

How the results depend on the processing

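The 7947 genes called between filtered smoke and clean air numbered 5979 to 10948 over the planned scalings, filters, tools, offsets and blocks, and 10512 and 10604 in 2 added fits without clean air 1. Leaving out 1 compared library gave 3652 (without clean air 3) to 9276 (without clean air 1), with 3799 without clean air 2, 4735 without filtered smoke 1 and 4513 without filtered smoke 2. Sample numbers 1 and 2 alone, an alternative chosen after seeing the data, gave 5264. Fits that drop a library test fewer samples. The interaction between lines, 146 genes, moved to 822 with library size alone, 450 with no low-count filter, 94 with at least 1 CPM in every library, 645 with DESeq2's Wald test, 535 with offsets for GC content and length, and 47 (without filtered smoke 2) to 182 (without clean air 1) when 1 library was left out; the cause was not tested. Filtered against complete smoke stayed at 0 except for 2 genes without complete 2. Multimapping differed by 2.77 to 6.89 percentage points when 1 library was left out.

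With the replicate block the comparison called 10948 genes, 7943 of them among the 7947, the interaction 2742 and, with offsets for GC content and length, 3543, and filtered against complete smoke 0, with 951 at an unadjusted p under 0.05. Besides the calls gained that stand in the report, the block lost AKR1B10 (1.04, adjusted p = 0.0520).

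Of 4203 alternative values for 176 results on named genes, 3933 stayed called with the same sign or stayed uncalled, 231 lost and 38 gained the call. CFAP251 changed sign with library size alone, to -0.0095. Among the 3933, 25 values called in neither setting changed sign, in 7 genes that include HMOX1 and NQO1. Library size alone ended 24 calls, and offsets for GC content and length 11. In data simulated at the depth of these libraries, with 1 common spread for all genes, 31% of log2 changes of 1 were recovered. With all libraries thinned to the smallest, 7637 genes were called.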
